A study of Mus musculus with 6 samples.

Results

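Checkpoint blockade was compared with control antibody in alloreactive CD4+ T cells labelled as lacking Irf4, over 4 of the 6 arrays of the study. The arrays were chosen by their labels: 2 arrays of Irf4 KO cells from recipients given antibodies to PD-L1 and CTLA-4, and 2 arrays of Irf4 KO cells from recipients given rat IgG. The cells were TEa cells on a C57BL/6 background, CD4+ T cells that all carry the same transgenic T cell receptor (Vα2 with Vβ6) and the CD45.2 allele. They were sorted from spleens of WT or Irf4−/− TEa donor mice, transferred on day -1 into CD45.1+ B6.SJL mice that had their own T cells, and challenged with a Balb/c heart graft on day 0. Blockade recipients were injected with 200 µg of anti-PD-L1 and 200 µg of anti-CTLA-4 on days 0, 3 and 5, and IgG recipients with 400 µg of rat IgG on the same days. Donor cells were sorted back from recipient spleens on day 6, and RNA was hybridised to single-colour Agilent mouse arrays. The remaining group, 2 arrays of WT TEa cells from IgG recipients whose dose is not stated, served as a reference level. The labels describe the arrays of a group as independent experiments. They do not say how many mice were pooled, their age, or how the Irf4 allele was made.

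PD-1 and CTLA-4 are inhibitory receptors of activated T cells. PD-1 binds PD-L1 and dampens signals from the T cell receptor and CD28, while CTLA-4 competes with CD28 for CD80 and CD86 on antigen-presenting cells. Irf4 is a transcription factor induced in proportion to T cell receptor signal strength that sustains clonal expansion and effector differentiation. A dividing T cell switches on DNA replication and histone genes in S phase and cyclin B, kinesin and kinetochore genes before mitosis, whereas differentiation genes set what kind of helper, memory, regulatory or dysfunctional cell it becomes.

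Irf4 itself was read by 2 probes. The brighter probe had intensities of 2128 and 3073 with IgG, 2071 and 1703 with blockade, and 673 and 1068 in WT cells. The dimmer probe had 226 and 221, 218 and 163, and 73.6 and 80.3 in the same order. Both probes thus gave more signal in the cells labelled Irf4 KO than in WT cells, and the blockade and IgG arrays overlapped on the brighter probe after normalisation (log2 fold change -0.04, SE 0.13). Whether either probe lies within the deleted part of the gene was not established here, so the genotype is given as labelled.

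All 6 arrays lay on 1 slide with every group on both of its rows, but the IgG arrays stood apart technically. On them 66.2% and 75.5% of probes were well above background, against 39.7% and 34.6% with blockade and 37.6% and 40.6% in WT cells. The dimmest 3 spike-in probes, which read RNA added during labelling, lay at log2 4.71 to 7.77 on the IgG arrays and 1.87 to 2.81 on the other 4, while the brightest spike-in probe lay between 14.83 and 15.76 on all 6. The scanner software marked the IgG arrays alone as out of range for spike-in detection limit and spread. Only bright genes were therefore compared: 8582 genes whose log2 intensity averaged 8 or more across the 6 arrays, quantile-normalised among themselves, so that each value is a log2 intensity relative to other bright genes. T cell identity markers were well above background on every array (17 of 17 with a probe), and their summed intensity ranged from 293724 to 546098.

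**Figure D1:**
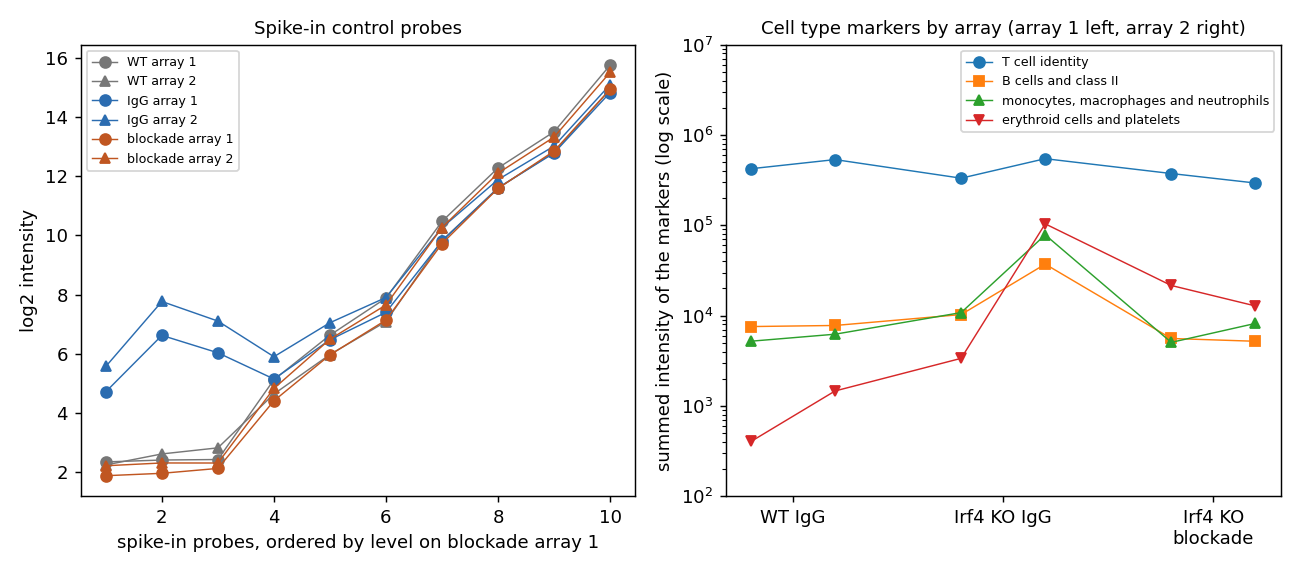
Left, log2 intensity of 10 spike-in control probes on each array; right, summed intensity (log scale) of marker lists on each array, with lines only to guide the eye. The IgG arrays part from the other 4 on the dimmest 3 spike-in probes (4.71 to 7.77 against 1.87 to 2.81), and IgG array 2 has the most signal from each of the other-cell lists drawn, 103679 for erythroid markers against 3363 on IgG array 1.

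Markers of other cells differed between these arrays. Summed intensity of 18 B cell and class II markers was 10269 and 37138 with IgG and 5581 and 5197 with blockade. For 24 monocyte, macrophage and neutrophil markers it was 10798 and 78330 against 5052 and 8185, and for 18 erythroid and platelet markers 3363 and 103679 against 21557 and 12796. Of the B cell markers 9, Cd79a and Pax5 among them, were not well above background on any blockade array, and 0 of the 18 were below it on both IgG arrays. Such signal was itself rarer among all probes with blockade (39.7% and 34.6%) than with IgG (66.2% and 75.5%). Whether the B cell marker counts differed beyond this gap was not tested. The class II gene H2-Eb1 read log2 10.34 and 12.24 with IgG and 5.99 and 6.81 with blockade (adjusted p = 0.0540). It met the minimum only through the IgG arrays. Summed intensity was 29689 and 23546 against 15071 and 12269 for 14 dendritic cell markers, with 15237 and 19783 in WT cells. Siglech alone read 23793 and 12858 with IgG, 7367 and 4738 with blockade and 7552 and 13923 in WT cells. Of the 14, 10 were not well above background on any blockade array and 3 on any IgG array. These counts, too, were not tested against the gap among all probes. The sum was 2078 and 5970 against 1714 and 2043 for CD8 T and NK cell markers, and 396 and 1978 against 63.6 and 179 for plasma cell markers. The part of other cells in the results below was not tested. Values from these sorted populations are bulk values, in which fewer cells of a type and less RNA per cell cannot be told apart.

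A small set of genes, led by histone genes, was higher with blockade than with IgG. Of the 8582 genes, 17 were higher and 12 lower on the blockade arrays at an adjusted p under 0.05 (limma over all 6 arrays, Benjamini-Hochberg), which is 0.198% and 0.14% of those tested and 0.338% together. Of the 17, 11 have a gene name: 6 histone genes, Tyms-ps, Cenpw, Lockd, Gcat and Selenoh. Their adjusted p-values ran from 0.0365 to 0.0446. Many more genes separated the groups without passing: both blockade arrays lay above both IgG arrays for 33.3% of genes and below for 29.4%, and an unadjusted p under 0.05 was reached by 15% in the higher and 13.5% in the lower direction.

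The count of calls changed with the arrays and the scale used. With the 4 Irf4 KO arrays alone, with the slide row as a block, or without either WT array or either blockade array, limma called 0 genes in either direction (1112 to 2586 genes had an unadjusted p under 0.05), and without IgG array 1 it called 0 higher and 1 lower, a gene not among the 12. Without IgG array 2 it called 159 higher and 137 lower. Of the calls 58.6% were higher, against 68.7% with each array centred on the median of its bright genes and 99.5% with the 75th percentile of all probes as the scale. The latter scale moves the median of all bright genes from 0.02 to 1.09, so values given here are relative to other bright genes, and many of the smaller negative differences turned positive with it. The sign of the difference was unchanged for 29 of the 29 genes in these fits.

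**Figure D2:**
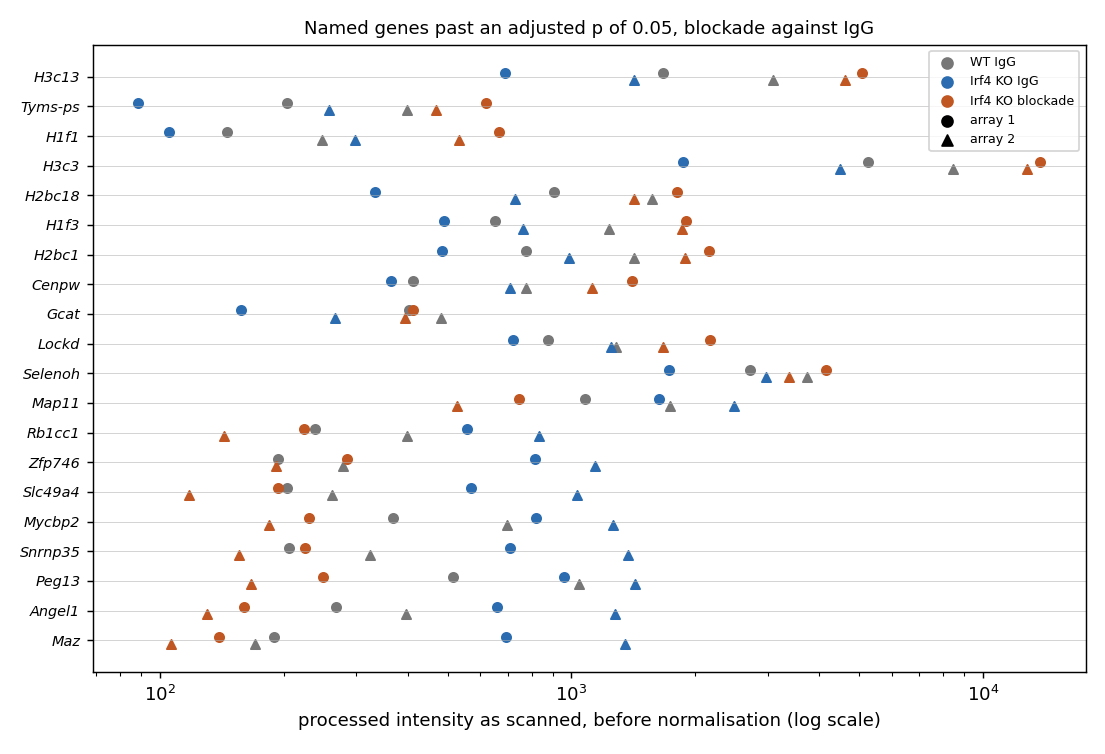
Intensity as scanned, before normalisation (log scale), of the 20 named genes past an adjusted p of 0.05 on each of the 6 arrays. The histone genes lie to the right on the blockade arrays (H3c13 at 5082 and 4627 against 689 and 1417 on IgG), and the genes that fell lie between 107 and 746 there.

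The genes of replication-dependent histones supply the nucleosome proteins needed as DNA is copied, and their transcripts are confined largely to S phase. H3c13, an H3 gene, had log2 levels of 9.42 and 9.88 with IgG and 12.35 and 12.52 with blockade. It was thus 6.88-fold higher with blockade (log2 2.78, SE 0.23, adjusted p = 0.0365), above the WT levels of 10.85 and 11.32 as well. The linker histone gene H1f1 read 6.72 and 7.31 with IgG and 9.49 and 9.57 with blockade, a 5.74-fold rise (SE 0.22 on log2, adjusted p = 0.0365). Its scanned intensities were 145 and 248 in WT cells, 106 and 298 with IgG and 666 and 534 with blockade. H1f1 thus met the minimum mean log2 of 8 (256 in intensity) only through the blockade arrays, as did Tyms-ps, Cdca3 and Mcm10. For these genes the filter itself favoured a rise. H1f3, another linker histone gene, read 8.89 and 8.94 against 10.96 and 11.26, a 4.58-fold rise (SE 0.19, adjusted p = 0.0365). H3c3 rose 5.69-fold and H2bc18 4.93-fold, with adjusted p of 0.0372 and 0.0377. H2bc1, an H2B gene outside the list, rose 4.30-fold. These 6 genes lie in the histone clusters of chromosome 13 (H1f1, H1f3, H3c3 and H2bc1) and chromosome 3 (H3c13 and H2bc18).

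The list of replication-dependent histones and their chaperones had 25 of its 37 members among the bright genes. Both blockade arrays exceeded both IgG arrays for 25 of the 25 (100%, against 33.3% of all genes), and 5 passed the test (20%, against 0.198%). The median log2 fold change was 1.68, against 0.02 for all genes. The largest values did not pass: H1f5 read 8.57 and 9.97 against 12.47 and 12.82 (log2 3.38, SE 0.45, adjusted p = 0.0540) and H2ac4 11.42 and 12.80 against 15.13 and 15.51 (log2 3.21, SE 0.46, adjusted p = 0.0568). In both genes the IgG arrays differed from each other by more than 1 log2 unit, and the blockade arrays by less. Many histone genes are near-identical copies, so a probe may read several of them.

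Within 250 bases before the start, CCAAT (either strand) was found for 6 of the 6 called histone genes and TATAA (gene strand) for 5, H3c3 being the gene without it. The windows of H1f1, H1f3 and H2bc18 are shown as 3 of the 5 that hold both elements. They are the 150 bases before the annotated start from RefSeq (build GRCm38.p6), written on the gene's strand, with the matches in capitals.
H1f1 (chr13:23763518-23763667, plus strand): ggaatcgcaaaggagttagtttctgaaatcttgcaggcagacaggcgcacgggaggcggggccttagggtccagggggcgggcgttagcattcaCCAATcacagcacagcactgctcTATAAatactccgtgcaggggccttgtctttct
H1f3 (chr13:23554882-23555031, plus strand): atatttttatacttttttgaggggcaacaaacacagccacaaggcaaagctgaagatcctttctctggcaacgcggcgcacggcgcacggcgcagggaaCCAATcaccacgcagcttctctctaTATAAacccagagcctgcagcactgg
H2bc18 (chr3:96269550-96269699, plus strand): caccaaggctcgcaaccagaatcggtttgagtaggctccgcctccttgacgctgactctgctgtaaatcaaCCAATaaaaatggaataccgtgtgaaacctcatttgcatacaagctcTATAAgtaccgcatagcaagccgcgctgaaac
In H1f1 the CCAAT match begins 56 bases and the TATAA match 33 bases before the start, in H1f3 at 51 and 26, and in H2bc18 at 79 and 32. Over the 250 bases before the start, CCAAT on either strand was present in 21 of 24 windows of the histone list (87.5%) and TATAA in 15 (62.5%), compared with 35.3% and 8.43% of the 6919 windows of genes in the fit, and 33.8% and 16% of all 32851 windows. A match is a description of the letters and not evidence of a bound factor.

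Genes of mitosis had a higher median difference than those of replication, a gap that was not tested. None of the 30 bright genes of the mitotic list passed, whereas 4 did with normexp background correction and 21 with each array centred on the median of its bright genes, all higher. Ccnb2, a cyclin B that drives entry into mitosis, read 7.01 and 8.84 with IgG and 11.10 and 10.96 with blockade (log2 3.10, SE 0.59, adjusted p = 0.0726). Cdca3, which promotes mitotic entry, read 5.53 and 7.39 against 9.67 and 9.65 (log2 3.20, SE 0.61, adjusted p = 0.0726). Plk1, the mitotic polo kinase, read 7.21 and 8.97 against 10.83 and 11.08 (log2 2.86, SE 0.60). In all of these the blockade arrays lay close together and the IgG arrays far apart, IgG array 1 being the lower. Ube2c, the ubiquitin-conjugating enzyme of the anaphase-promoting complex, and Birc5, the survivin subunit of the chromosomal passenger complex, had log2 differences of 2.97 and 3.06. Cdc20, the activator of that ubiquitin ligase, had 2.41 and Aurka, the centrosomal kinase, 2.10. Racgap1, needed for cytokinesis, read 7.76 and 8.40 against 10.23 and 9.95 (log2 2.01, SE 0.27, adjusted p = 0.0540).

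Of the 30 bright members of the spindle, kinetochore and mitotic exit list, 27 had both blockade arrays above both IgG arrays and 1 had both below. These are 90% and 3.33%, against 33.3% and 29.4% of all genes, and the median of the list was 1.67. Cenpw, a kinetochore protein not on the list, did pass: it read 8.44 and 8.82 against 10.54 and 10.56 (3.78-fold, SE 0.20 on log2, adjusted p = 0.0446). Mki67, the common marker of cycling cells, is one whose groups overlapped, at 6.999 and 9.46 with IgG and 10.05 and 8.97 with blockade (log2 1.28, SE 0.98). Mitotic promoters are known for CCAAT boxes and for the cell cycle element TTTGAA. Those of Ccnb2 and Ube2c, 2 of the largest differences, are shown with any match to either motif in capitals (either strand, same build and window).
Ccnb2 (chr9:70421555-70421704, minus strand): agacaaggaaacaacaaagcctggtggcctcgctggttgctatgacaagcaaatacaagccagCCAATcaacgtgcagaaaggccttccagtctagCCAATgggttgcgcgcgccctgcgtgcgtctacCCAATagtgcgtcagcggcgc
Ube2c (chr2:164769779-164769928, plus strand): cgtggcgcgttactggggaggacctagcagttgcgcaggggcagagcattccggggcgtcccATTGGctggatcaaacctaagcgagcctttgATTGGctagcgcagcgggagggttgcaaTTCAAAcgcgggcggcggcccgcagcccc
Ccnb2 holds 3 CCAAT matches, beginning 21, 54 and 87 bases before the start, and no TTTGAA match in the window shown. Ube2c holds 2 CCAAT matches, with a TTTGAA match nearer the start. CCAAT was found in 21 of 28 windows of the mitotic list (75%) and TTTGAA in 12 (42.9%), against 35.3% and 10.9% of windows of genes in the fit. The share with CCAAT did not follow the size of the median difference. It was 90% for the replication licensing list (9 of 10 windows), 66.7% for the cyclin, CDK and E2F list and 46.4% for the replication fork list.

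Replication genes had lower medians. Among nucleotide supply genes, Tk1 (thymidine kinase) read 6.81 and 8.36 with IgG and 10.42 and 10.25 with blockade (log2 2.75, SE 0.54, adjusted p = 0.0726). Rrm2, the inducible subunit of ribonucleotide reductase, had a log2 difference of 2.31 and Tyms, which makes thymidylate, of 1.98 (SE 0.25, adjusted p = 0.0540). Tyms-ps, its processed pseudogene, passed with 6.37 and 6.85 against 9.39 and 9.38, a 6.86-fold rise, but its probe may read Tyms itself. At the fork, the primase subunit Prim1 read 7.83 and 8.51 against 9.96 and 10.03 (log2 1.83), whereas the sliding clamp Pcna read 12.48 and 12.63 against 13.02 and 12.98 (log2 0.44, SE 0.14, adjusted p = 0.121). Of 26 bright fork and nucleotide genes 23 had blockade above IgG and 0 below, with a median of 0.81. These are 88.5% and 0%, against 33.3% and 29.4% of all genes.

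Licensing genes load and fire the replicative helicase in advance of S phase. Of 13 bright members, 12 had blockade above IgG and 0 below (92.3% and 0%, against 33.3% and 29.4% of all genes). Their median of 0.49 was below the 0.81 of fork and nucleotide genes, a gap that depended on the minimum and was not tested. At a minimum of 7 the licensing and fork medians were 0.8631 and 0.8632. With each array centred on the median of its bright genes they were 0.68 and 0.72. Mcm7 read 10.80 and 11.01 against 12.05 and 11.98 (log2 1.11, SE 0.23, adjusted p = 0.0762), while the helicase subunits Mcm2 and Mcm3 had 0.35 and 0.49. The 3 bright probes of Mcm3 differed in sign, from -0.15 to 0.54. Mcm10, which activates the helicase, was the exception at 6.25 and 7.74 against 9.45 and 9.47 (log2 2.46, SE 0.55, adjusted p = 0.0785).

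Cyclins of different phases had different values, a contrast that was not tested. The S phase and mitotic cyclins Ccna2, Ccnb2 and Ccnb1 had log2 differences of 3.06, 3.10 and 2.22, the G1/S cyclin Ccne1 read 8.71 and 9.13 against 10.15 and 10.04 (log2 1.18, SE 0.17, adjusted p = 0.0572), and the G1 cyclin Ccnd3 read 12.80 and 12.76 against 12.48 and 12.35 (log2 -0.36, SE 0.12, adjusted p = 0.131). Of the 15 bright genes of cyclins, CDKs and E2F factors 11 had blockade above and 1 below, with a median of 1.14. These are 73.3% and 6.67%, against 33.3% and 29.4% of all genes. Over the 5 members left at a minimum of 10 the median was 0.10. Lockd, a noncoding RNA transcribed beside the CDK inhibitor gene Cdkn1b, passed with 9.49 and 9.68 against 11.16 and 11.11 (2.93-fold, SE 0.12 on log2, adjusted p = 0.0365), while Cdkn1b overlapped (log2 -0.13, SE 0.17). Of 20 bright CDK inhibitors and quiescence factors 2 lay above and 8 below (10% and 40%, against 33.3% and 29.4% of all genes). Their list had a median of -0.18 (-0.007 without IgG array 1). Its Btg1, an antiproliferative factor, read 14.94 and 14.89 against 14.34 and 14.18, and its Klf6 11.47 and 11.39 against 10.84 and 10.82, neither of which passed.

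**Figure D3:**
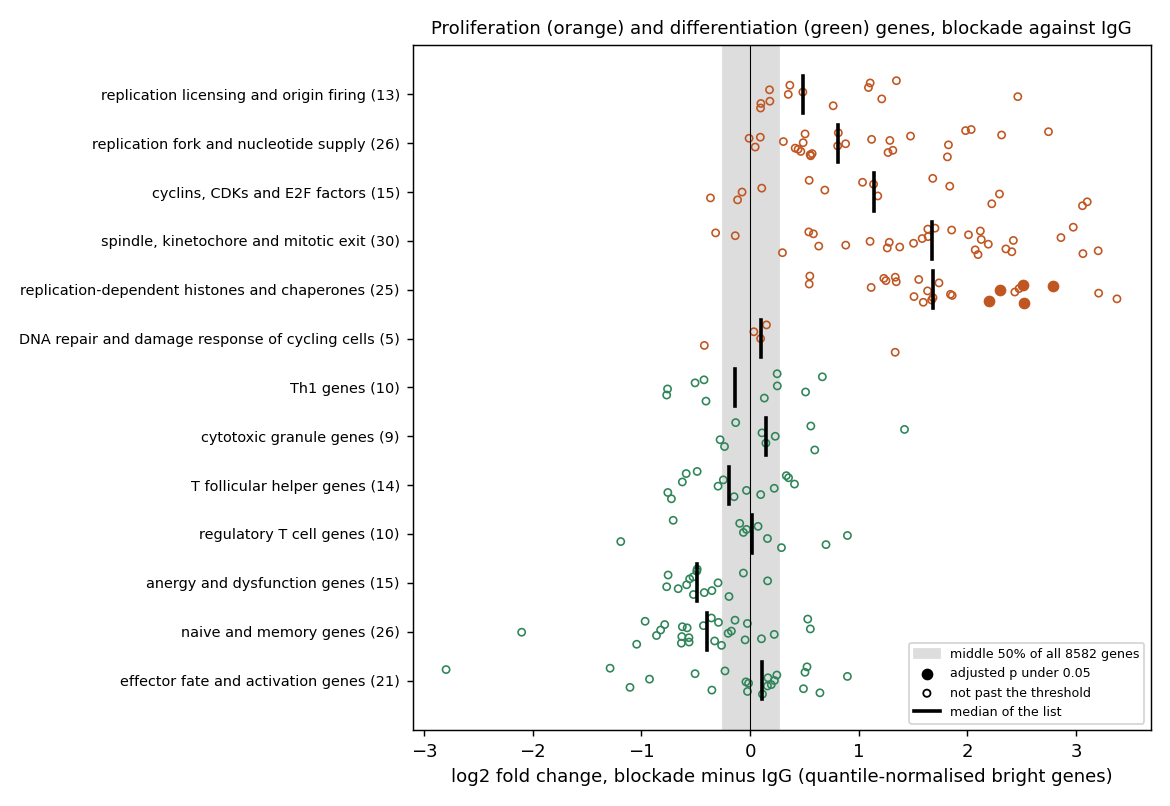
Log2 fold change (blockade minus IgG) of every bright member of the proliferation lists (orange) and the main differentiation lists (green), one point a gene, with the number of genes in brackets. Histone and mitotic genes have medians of 1.68 and 1.67, and the differentiation lists lie near or below 0, between -0.49 and 0.15.

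As a class, the proliferation genes numbered 212, of which 114 were bright, 92 were too dim for the fit and 6 had no probe. Of the 114, 5 passed, all higher and all histones (4.39%, against 0.198% of all genes). Both blockade arrays lay above both IgG arrays for 99 (86.8%, against 33.3% of all genes) and below for 3 (2.63%, against 29.4%), and the median log2 fold change was 1.30. Each blockade array exceeded each IgG array: the median difference was 1.51 and 1.65 for blockade arrays 1 and 2 against IgG array 1, and 0.96 and 0.97 against IgG array 2. Arrays on the same row of the slide gave 0.96 in row 1 and 1.65 in row 2. The mean log2 level of the class was 9.52 and 10.13 with IgG, 11.15 and 11.15 with blockade and 10.12 and 10.61 in WT cells. The 5 bright DNA repair genes were the exception, with a median of 0.10 (-0.06 without IgG array 2). Of the 92 dim members, 72 were well above background on both IgG arrays and 80 on both blockade arrays. Cdk1, the kinase partner of cyclin B, is one of them, with intensities of 27.4 and 95.2 with IgG and 245 and 185 with blockade.

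**Figure D4:**
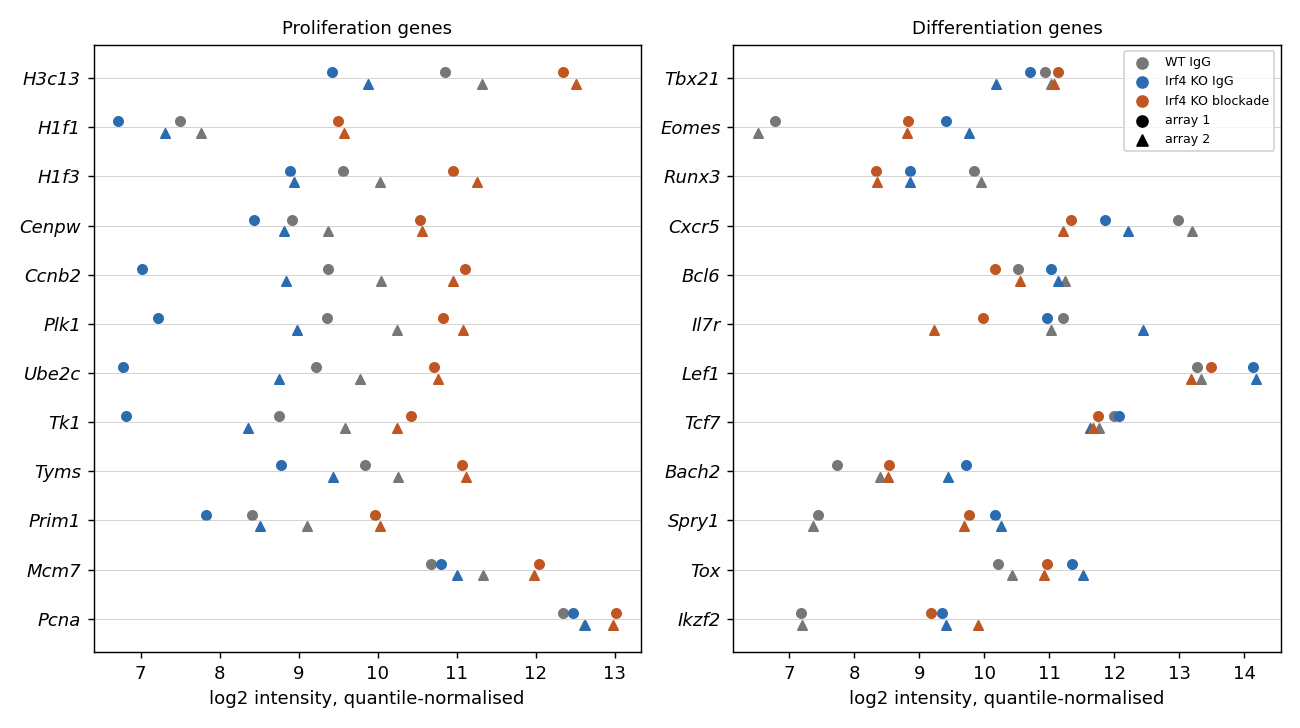
Normalised log2 intensity of 12 proliferation genes (left) and 12 differentiation genes (right) on each of the 6 arrays (circles array 1, triangles array 2). In the left panel both blockade arrays lie to the right of every other array, as for H1f1 at 9.49 and 9.57; in the right panel the order varies by gene, and Eomes at 8.84 and 8.82 with blockade lies between IgG and WT.

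No differentiation gene was called in the quantile-normalised comparison. Of 181 genes 100 were bright, 0 passed the adjusted threshold by limma, 18 had both blockade arrays above both IgG arrays and 46 both below (18% and 46%, against 33.3% and 29.4% of all genes). At an unadjusted p under 0.05 there were 9 higher and 31 lower, and the median was -0.23. For the pairs on slide row 1 and row 2 it was -0.22 and -0.23. With arrays centred on the median of the bright genes it was -0.05, and 4 genes were called higher and 5 lower. It was 0.95 with the 75th percentile of all probes, or -0.15 relative to all bright genes. Of the 80 members too dim for the fit, 54 were well above background on both IgG arrays, 31 on both blockade arrays and 34 on neither blockade array. Among all probes, the share that bright was likewise larger with IgG (66.2% and 75.5%) than with blockade (39.7% and 34.6%). A difference of the dim members beyond that gap was not tested.

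Helper lineage genes had small differences of mixed sign. The Th1 list had a median of -0.14 (0.16 without IgG array 2 and 0.002 without blockade array 2). Of its 10 bright genes 4 lay above and 4 below (40% each, against 33.3% and 29.4% of all genes). In it Tbx21, the T-bet gene that specifies Th1 cells, read 10.71 and 10.18 with IgG and 11.14 and 11.08 with blockade (log2 0.67, SE 0.19, adjusted p = 0.106). Eomes, the related T-box factor of cytotoxic and memory cells, read 9.42 and 9.77 against 8.84 and 8.82 (log2 -0.77, SE 0.16, adjusted p = 0.0774), far above its WT levels of 6.78 and 6.52. Eomes reached the minimum mean log2 of 8 only with the IgG arrays included, so the filter itself favoured a fall. Runx3, a partner of T-bet, read 8.85 and 8.85 against 8.34 and 8.36. Serpinb6b, a granzyme inhibitor of the cytotoxic list, had the largest positive difference of the class, with 10.18 and 10.14 against 11.48 and 11.69 (log2 1.42, SE 0.17, adjusted p = 0.0540). The effector cytokine and granule genes Ifng, Il21 and Gzmb were too dim to test. Ifng had intensities of 98.2 and 260 with IgG and 107 and 4.46 with blockade, and Gzmb was not well above background on either blockade array.

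Follicular helper genes had a median of -0.20 over 14 bright genes, or 0.08 with each array centred on the median of its bright genes. Cxcr5, the receptor that brings T cells to B cell follicles, read 11.86 and 12.21 against 11.33 and 11.22 (log2 -0.76, SE 0.16, adjusted p = 0.0774), and Bcl6, the lineage factor, 11.03 and 11.14 against 10.16 and 10.56 (log2 -0.72, SE 0.27). The regulatory T cell list had 10 bright genes and a median of 0.02, or -0.15 without IgG array 1 and 0.27 without IgG array 2. In it Ikzf2 (Helios) overlapped at 9.35 and 9.41 against 9.18 and 9.90 and Nrp1 at 11.33 and 11.51 against 11.45 and 11.26. Foxp3 was too dim for the fit, with 41.9 and 185 against 35.4 and 30 in intensity. Of the Th2 and Th17 lists only 2 and 3 genes were bright, with medians of -0.32 and -0.15, and Il6ra, a chain of the interleukin 6 receptor, read 12.33 and 12.49 against 11.41 and 10.63 (log2 -1.39, adjusted p = 0.0775).

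Anergy and dysfunction genes, and naive and memory genes, were the differentiation groups with most members below IgG, though none passed. In the anergy list 12 of 15 bright genes had both blockade arrays below both IgG arrays and 0 above (median -0.49). These are 80% and 0%, against 29.4% and 33.3% of all genes. Spry1, an inhibitor of ERK signalling, read 10.16 and 10.27 against 9.76 and 9.68 (log2 -0.49, SE 0.11, adjusted p = 0.0785), and Tox, a factor of exhausted T cells, 11.35 and 11.51 against 10.97 and 10.92 (log2 -0.49, SE 0.13). Nr4a1, induced by T cell receptor signals, read 12.57 and 12.21 against 11.38 and 11.90.

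In the naive and memory list 19 of 26 were below and 2 above (median -0.39). These are 73.1% and 7.69%, against 29.4% and 33.3% of all genes. Il7r, the interleukin 7 receptor of resting and memory cells, read 10.97 and 12.44 with IgG and 9.98 and 9.23 with blockade (log2 -2.10, SE 0.51, adjusted p = 0.0814). Lef1 read 14.13 and 14.18 against 13.49 and 13.18 (log2 -0.82, SE 0.14, adjusted p = 0.0679), and Bach2, a repressor that holds cells out of effector fate, 9.71 and 9.44 against 8.54 and 8.53 (log2 -1.04, SE 0.24). Tcf7, the partner of Lef1, overlapped at 12.07 and 11.62 against 11.74 and 11.67.

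Effector fate and activation genes had a median of 0.11 over 21 genes, 5 above and 4 below (23.8% and 19%, against 33.3% and 29.4% of all genes). It was -0.05 without IgG array 1 and -0.03 without blockade array 1. Lgals1, which encodes galectin 1, read 13.20 and 13.58 against 14.30 and 14.27 (log2 0.90, SE 0.20, adjusted p = 0.0785), while Id2, an inhibitor of E proteins, read 10.03 and 10.07 against 9.62 and 8.26. S100a4 had the lowest difference of the class (log2 -2.80, SE 1.22, adjusted p = 0.199) but its arrays scattered, 14.42 and 16.50 with IgG and 14.39 and 10.94 with blockade. S100a8 and S100a9, neutrophil genes of the same protein family, were likewise highest on IgG array 2, at 13.58 and 15.15. The part of other cells' RNA in the effector values was not tested.

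**Figure D5:**
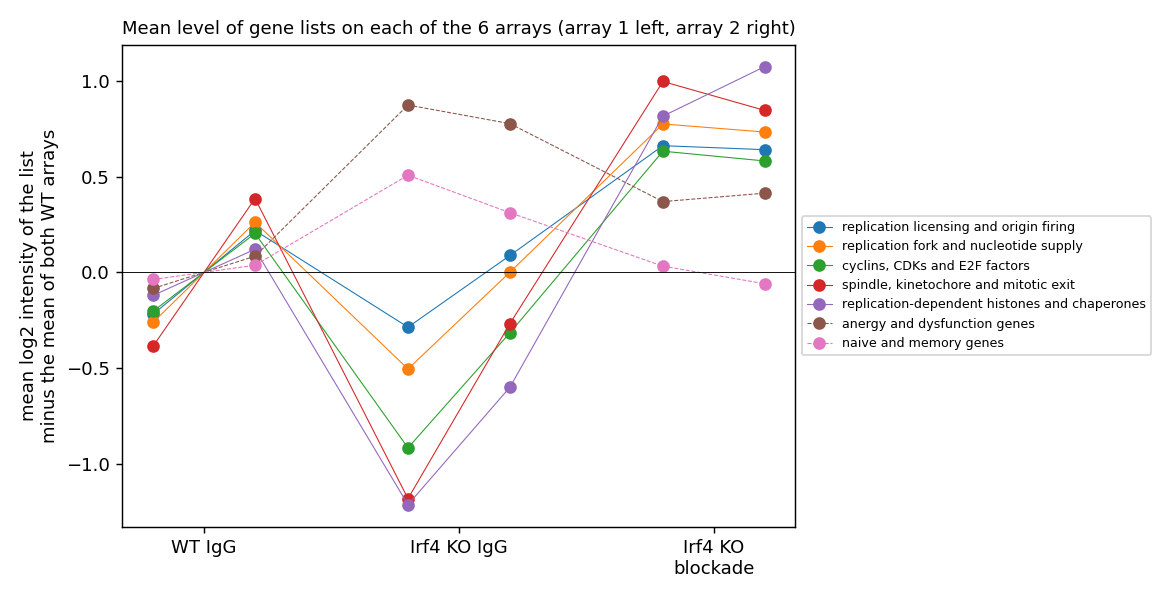
Mean log2 intensity of 7 gene lists on each array, as the difference from the mean of both WT arrays; lines only guide the eye. The 5 proliferation lists are highest on the blockade arrays and lowest on IgG array 1 (mitotic list, IgG 8.53 and 9.44 against 10.70 and 10.55 in level), while the anergy list is highest on IgG (11.38 and 11.29 against 10.88 and 10.93).

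Set beside WT cells, which share the blockade arrays with the comparison above, the classes gave different values. Blockade minus WT had a median of 0.87 for the proliferation genes (108 of 114 positive). Of the 114, 1 passed the threshold, H1f1 (log2 1.90, adjusted p = 0.0333), which met the minimum only through the blockade arrays. For the differentiation genes the median was -0.00, with 7 past the threshold in each direction, where 1% of all genes passed in either direction. The 7 higher than WT included Crtam (3.01), Ikzf2 (2.35), Spry1 (2.32) and Eomes (2.18), and the 7 lower included Cxcr5 (-1.82), Runx3 (-1.55), Icos (-1.22) and the chemokine receptor gene Cxcr3 (-1.17). The difference between blockade and IgG for these 8 genes ran from -0.77 to 0.60, and none of them passed there. Crtam, Ikzf2, Spry1 and Eomes met the minimum only through the Irf4 KO arrays, so the filter itself favoured a rise over WT. Their scanned intensities in WT cells were 71.7 and 71.8, 113 and 147, 142 and 169, and 69.4 and 83.6, in that order.

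The blocked pathway's own genes did not pass. Pdcd1, encoding PD-1, read 11.07 and 12.10 with IgG and 11.29 and 10.63 with blockade (log2 -0.62, SE 0.38, adjusted p = 0.321), and Cd274, encoding PD-L1, 8.08 and 8.37 against 7.98 and 7.59 (log2 -0.44, SE 0.18, adjusted p = 0.179). Cd274 likewise reached the minimum mean log2 of 8 only with the IgG arrays included, so the filter itself favoured a fall. The costimulatory receptor genes Cd28 and Icos overlapped (log2 -0.21 and -0.03). Ctla4 was too dim for the fit, at intensities of 242 and 439 with IgG and 178 and 178 with blockade. The list of checkpoint receptors and ligands had 0 of 11 bright genes above and 3 below. The share below, 27.3%, was near the 29.4% of all genes, and 33.3% of all genes lay above.

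Genes downstream of the T cell receptor were mostly lower with blockade in the quantile-normalised comparison, without passing. In the immediate early and feedback list 14 of 20 bright genes lay below and 0 above (median -0.64). The phosphatase gene Dusp1 read 10.87 and 11.16 against 9.94 and 9.34 (log2 -1.38, SE 0.22, adjusted p = 0.0648), Nfkbia, the NF-kB inhibitor, 14.03 and 14.02 against 13.18 and 13.18 (log2 -0.84, SE 0.11, adjusted p = 0.0540), and Fos and Jun had log2 differences of -1.44 and -1.31. Dusp2, another feedback phosphatase, had -1.06. Fos met the minimum mean log2 of 8 only through the IgG arrays, so the filter itself favoured a fall. Its scanned intensities were 604 and 476 with IgG, 128 and 145 with blockade and 201 and 329 in WT cells. Of 31 T cell receptor signalling genes 22 lay below and 0 above (71% and 0%, against 29.4% and 33.3% of all genes), with a median of -0.28. T cell identity genes had a similar median of -0.28, with 12 of 17 below. Among common gamma chain receptors, STAT and SOCS genes 20 of 23 lay below (median -0.38). Chemokine receptor, egress and adhesion genes had 7 of 17 below and 1 above (41.2% and 5.88%, median -0.19). The costimulatory TNF receptor family had 3 of 11 below and 2 above (median -0.09), and survival and death genes 7 of 18 below and 6 above (median -0.11). In the TNF receptor family 27.3% lay below and among survival genes 33.3% above, near the shares of all genes, and the family's median was 0.03 without IgG array 2 and 0.09 without blockade array 2. Among survival genes, Bcl2l11, the proapoptotic Bim, had a log2 difference of -1.10. With each array centred on the median of its bright genes, the medians were -0.47 for immediate early genes and -0.23 for gamma chain, STAT and SOCS genes. They were -0.06 for T cell receptor signalling, 0.11 for T cell identity and 0.12 for chemokine receptor, egress and adhesion genes. Survival genes had 0.09 and the TNF receptor family -0.075, against 0.10 for all genes.

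Growth and metabolic genes leaned the other way in part. Respiratory chain subunits lay above in 30 of 40 and below in 1 (median 0.33), Ndufa8 of complex I reading 9.60 and 9.72 against 10.41 and 10.41 (log2 0.75, SE 0.13, adjusted p = 0.0679). Proteasome subunits lay above in 26 of 32 (median 0.25) and interferon response genes in 29 of 44 (median 0.39), against 33.3% of all genes. Ifit1, an interferon-induced antiviral gene, read 7.79 and 8.25 with IgG and 9.15 and 9.33 with blockade, and its WT arrays lay apart at 9.63 and 7.91. Cytosolic ribosomal proteins had a median of -0.02 over 41 genes, but 0.53 with 5 called higher when each array was centred on the median of its bright genes, and targets of Myc with ribosome biogenesis genes one of 0.05 over 36 (-0.05 without IgG array 1). Glycolysis and hypoxia genes had a median of 0.02 over 26, with the glycolytic enzyme genes Tpi1 and Pgk1 at 0.82 and 0.68. Cholesterol and fatty acid synthesis genes had a median of 0.29 over 22 (0.10 without blockade array 2), with 11 above and 3 below, and endoplasmic reticulum chaperones and stress genes one of -0.00 over 19.

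Gcat, a mitochondrial enzyme of threonine and glycine breakdown, was the metabolic gene that passed. It read 7.18 and 6.999 with IgG and 8.81 and 9.15 with blockade (3.71-fold, SE 0.16 on log2, adjusted p = 0.0365), close to the WT levels of 8.89 and 8.70. Psat1 of serine synthesis read 10.66 and 10.43 against 11.57 and 11.60 (log2 1.04, SE 0.12, adjusted p = 0.0540), and the list of amino acid, one-carbon and nucleotide synthesis had a median of 0.28 over 24 genes. Selenoh, a nuclear selenoprotein, rose 2.18-fold (10.88 and 11.02 against 12.07 and 12.08, adjusted p = 0.0400).

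The 9 named genes that fell belong to no list used here. Maz, a zinc finger transcription factor, read 9.42 and 9.80 with IgG and 6.99 and 7.45 with blockade (5.26-fold lower, SE 0.24 on log2, adjusted p = 0.0411). Angel1 fell 4.10-fold, the imprinted noncoding RNA Peg13 3.69-fold, Snrnp35, a protein of the minor spliceosome, 3.30-fold, and Mycbp2, a large ubiquitin ligase, 3.16-fold. Slc49a4, Zfp746, Rb1cc1 (an autophagy initiation factor) and Map11 fell 3.14-fold, 2.62-fold, 2.33-fold and 2.25-fold. Of the 12 genes that fell 10 had a mean log2 intensity between 8 and 9, the dimmest band tested, which held 4 of the 17 that rose. Maz, Angel1, Snrnp35, Slc49a4, Zfp746 and Rb1cc1 met the minimum only through the IgG arrays, so the filter itself favoured a fall. Scanned intensities of Maz were 692 and 1352 with IgG, 139 and 107 with blockade and 190 and 171 in WT cells. On the WT arrays Maz read 7.84 and 7.39 and Zfp746 7.86 and 7.94, so that for these genes the IgG arrays stood apart from the other 4, as they did for dim spike-in probes. For Peg13 the blockade arrays stood apart instead, at 8.06 and 8.01 against 9.95 and 9.89 with IgG and 9.22 and 9.78 in WT cells (blockade minus WT -1.47, adjusted p = 0.0481), and the WT arrays of Mycbp2 and Map11 were likewise nearer to IgG. The part of the difference between arrays in these genes was not tested. A second bright probe of Map11 had a log2 difference of 0.19.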

How the data were processed

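Labelling with Cy3 started from 0.5 µg of RNA, per the labels' protocols. The deposited scanner files hold processed intensity, background-subtracted and detrended within the array and not scaled between arrays, from Agilent Feature Extraction 11.0.1.1 per the file headers (9.1 in the submitters' processing notes), with flags (other values) for spots well above background. The deposited value table holds this signal divided by 1 number per array, and was an alternative. Log2 intensity was averaged over the usable spots of 55371 probes, 10225 probes with a mean of at least 8 were quantile-normalised, and the brightest probe of a gene was kept (8582 genes). The 3 groups were fitted together with limma 3.58.1 under R 4.3.3 (3 residual degrees of freedom), with an adjusted p threshold of 0.05 (Benjamini-Hochberg). P-values measure the spread between 2 arrays a group, and arrays give no counts, so their number limits the precision. Alternatives changed the scale, background, minimum, probe rule, arrays and blocks. The fit was checked on simulated data.

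The arrays compared were chosen by label, but the comparison and the 39 gene lists (991 genes) were chosen with earlier results of these data known. Named genes are Irf4, the checkpoint genes, the 15 highest and lowest that passed, the leading members of each list by p, and a set of T cell genes. 24 others, and those cited from the all-array and dim-gene values, were chosen after their values were seen. Names come from RefSeq accessions (58.3% of probes). A few genes of the lists stay in every fit and count but are not reported here by name.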

Additional observations from a re-analysis of the deposited data

How the results depend on the processing

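The 29 called genes kept their direction in each alternative that held them, and the proliferation genes stayed above the median of all genes by 0.996 to 2.22 (log2). Counts of calls changed. Genes higher and lower numbered 0 and 0 with the 4 Irf4 KO arrays alone or the slide row as a block (limma, 2370 and 2586 genes at an unadjusted p under 0.05), 571 and 260 after centring on the array median, 35 and 21 after normexp, 7449 and 35 with the 75th percentile of all probes, 7873 and 8739 with all 28252 genes fitted, and 554 and 470 at an adjusted p under 0.1. Robust limma with an intensity trend gave 30 higher. Minimums of 7, 9 and 10 gave 32, 2 and 7 lower. Leaving out an array in turn gave 0 to 159 higher and 0 to 137 lower, and medians from 1.02 to 1.63 for proliferation genes. The share of calls that were higher, 58.6%, was 68.7% with the array median, 99.5% with the 75th percentile, 47.4% with all genes fitted, 41.8% at a minimum of 7, 88.9% at 9 and 70% with the replicate block. The minimum of 9 and the subtraction of each array's median intensity were chosen after seeing the data.

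The 75th percentile of all probes shifts all bright genes by 1.09 toward blockade. With it the median became 2.26 for proliferation genes (2.10 with all genes) and 0.95 for differentiation genes (0.63 with all genes), and the latter was -0.049 with the array median. With the 75th percentile these genes turned from a negative difference to one that passed as higher, at these log2 differences: Bcl11b 0.57, Btg1 0.80, Ccnd3 0.94, Ccr7 1.11, Cd28 1.096, Cd44 0.90, Cd5 1.11, Cdkn1b 1.03, Cflar 0.51, Cst3 0.98, Cxcr5 0.44, Egr2 0.83, Foxo1 0.69, Gata3 0.96, Hif1a 0.96, Icos 1.23, Ikzf1 0.40, Il4ra 0.75, Irf4 1.11, Klf6 0.54, Lef1 0.59, Nfkbia 0.55, Nrp1 1.0965, Rasgrp1 0.53, Rpl30 1.36, Sel1l 0.52, Spry1 0.50, Stat3 0.76, Tcf7 1.05, Tnfrsf1a 0.65, Tox 0.67, Vav1 0.78, Vsir 0.91 and Zap70 1.03. Others turned positive without passing, namely Pdcd1 0.54, Cd274 0.33, Eomes 0.15, Lta 0.12, Runx3 0.35, Tnfrsf9 0.35, Socs3 0.24, Tnfsf8 0.44, Itgam 0.49, Bcl6 0.39, Nr4a1 0.49 and Dusp2 0.38. Bach2 stayed negative at -0.13. Without IgG array 2 the differences of S100a8 and S100a9 turned to 0.16 and 0.42.

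Replicate numbers were shared by the groups but paired nothing in the labels, and within-group differences of same-numbered arrays correlated at 0.015, -0.20 and 0.035. With a replicate block 21 genes were higher and 9 lower, among them 11 and 6 of the calls. Dim probes limit what can be said: 92 proliferation and 80 differentiation genes lay below the minimum.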

Other observations

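Differences varied with gene span. Of the 6706 named bright genes, ordered by span in the RefSeq table, the shortest 1677 (up to 8170 bp) had a median log2 difference between blockade and IgG of 0.12, and the longest 1677 (from 41697 bp) -0.18. Both blockade arrays lay below both IgG arrays for 20% of the shortest and 47.5% of the longest, and above for 43.5% and 18.4%. Against WT the medians were 0.03 and -0.10. Gene span was not a term of any fit, and RNA quality values were not analysed here.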
